A study of Mus musculus with 10 samples.

Results

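The genes described here encode the Sm, LSm and SF3 proteins of the spliceosome and their close relatives in mRNA decay and histone mRNA processing. They are the 34 genes whose symbols begin with Lsm and a digit, with Snrp, or with Sf3a or Sf3b and a digit, out of 22329 genes in the table. Membership goes by symbol, but the family itself was chosen by its TPM in these tumours, from the contrast of the cytokine mRNA with the control mRNA group. Its group differences are therefore a description and support nothing. The name splicing factor core covers 29 of the 34 genes at most, because Lsm10, Lsm11, Lsm12, Lsm14a and Lsm14b act outside the splicing particles, and Lsm1 acts in the cytoplasm.

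The data are RNA profiles of 10 tumours grown under the skin of C57BL6/J mice from B16F10, a mouse melanoma cell line. Every tumour received 1 intratumoral injection of 80 µg mRNA in total and was collected 7 days later. In the 5 cytokine mRNA tumours, numbered 6 to 10, the dose held 20 µg each of mRNAs for mouse single-chain IL-12, IL-15sushi, GM-CSF and interferon alpha, and in the 5 control mRNA tumours, numbered 1 to 5, it was luciferase mRNA. The tumours are whole tissue from 1 transplanted cell line, and no untreated tumour is part of the comparison. Values are TPM, the share of a library's transcripts after correction for transcript length, scaled to 1000000, so levels of different genes can be set side by side, while sequencing depth is unknown.

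In the nucleus, small nuclear RNAs and proteins form the U1, U2, U4, U5 and U6 particles that recognise and remove introns. A ring of Sm proteins is built around the U1, U2, U4 and U5 RNAs in the cytoplasm, a ring of LSm proteins holds the end of U6 RNA, and the SF3a and SF3b complexes join U2 where the intron branch point is chosen. Dividing cells make these proteins in large amounts, and nearly all cell types express them.

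Most of these genes had lower TPM in cytokine mRNA tumours 6 to 9 than in the control mRNA tumours, while tumour 10 stayed at the control level. Their summed level was 2291, 1971, 2725, 2507 and 4071 TPM in cytokine mRNA tumours 6 to 10, against 4726, 4157, 3475, 4077 and 3728 TPM in control mRNA tumours 1 to 5. Tumours 6 to 9 lay below every control mRNA tumour in this sum, and tumour 10 lay inside the control range. Across 33 genes that passed a filter of at least 1 TPM in at least 5 libraries, the median log2 difference between cytokine mRNA and control mRNA tumours was -0.68, with 30 genes below 0. The median over all 12497 genes that passed was -0.18, so 28 of the 33 lay below the median of all genes. In bulk tissue, fewer cells of a type and less RNA per cell cannot be told apart.

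Few of the single differences passed the threshold after adjustment over all genes tested. With limma across all genes, 2 of the 33 were called lower at an adjusted p under 0.05 (6.06%), where 3.02% of all genes tested were called lower. None of the 33 was called higher by limma, where 7.41% of all genes were. At an unadjusted p under 0.05, 16 of the 33 were lower and 0 were higher. Of all 12497 genes tested, 2009 were lower and 1804 higher at that threshold. The groups did not overlap in 1 of the 33 genes, Lsm1, with all cytokine mRNA tumours below all control mRNA tumours, where 3.78% of all genes tested showed that order. The opposite order held in 0 of the 33, where 5.45% of all genes showed it. These counts turned on single tumours. Without tumour 10, 14 of the 33 were called lower (42.4%), where 12.8% of all genes were, and the groups then did not overlap in 19 of the 33, where 13.4% of all genes were lower without overlap. Without tumours 6 and 7 together, limma called 0 of the 33, where it called 1 gene lower and 19 higher in the whole table (0.008% and 0.152%). At an unadjusted p under 0.05, 9 of the 33 were lower there. The count over all genes at that looser threshold was not made, so the 9 have no background. After median-ratio scaling limma called 1 of the 33 lower, Lsm1, where 2.94% of all genes were called lower.

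**Figure D1:**
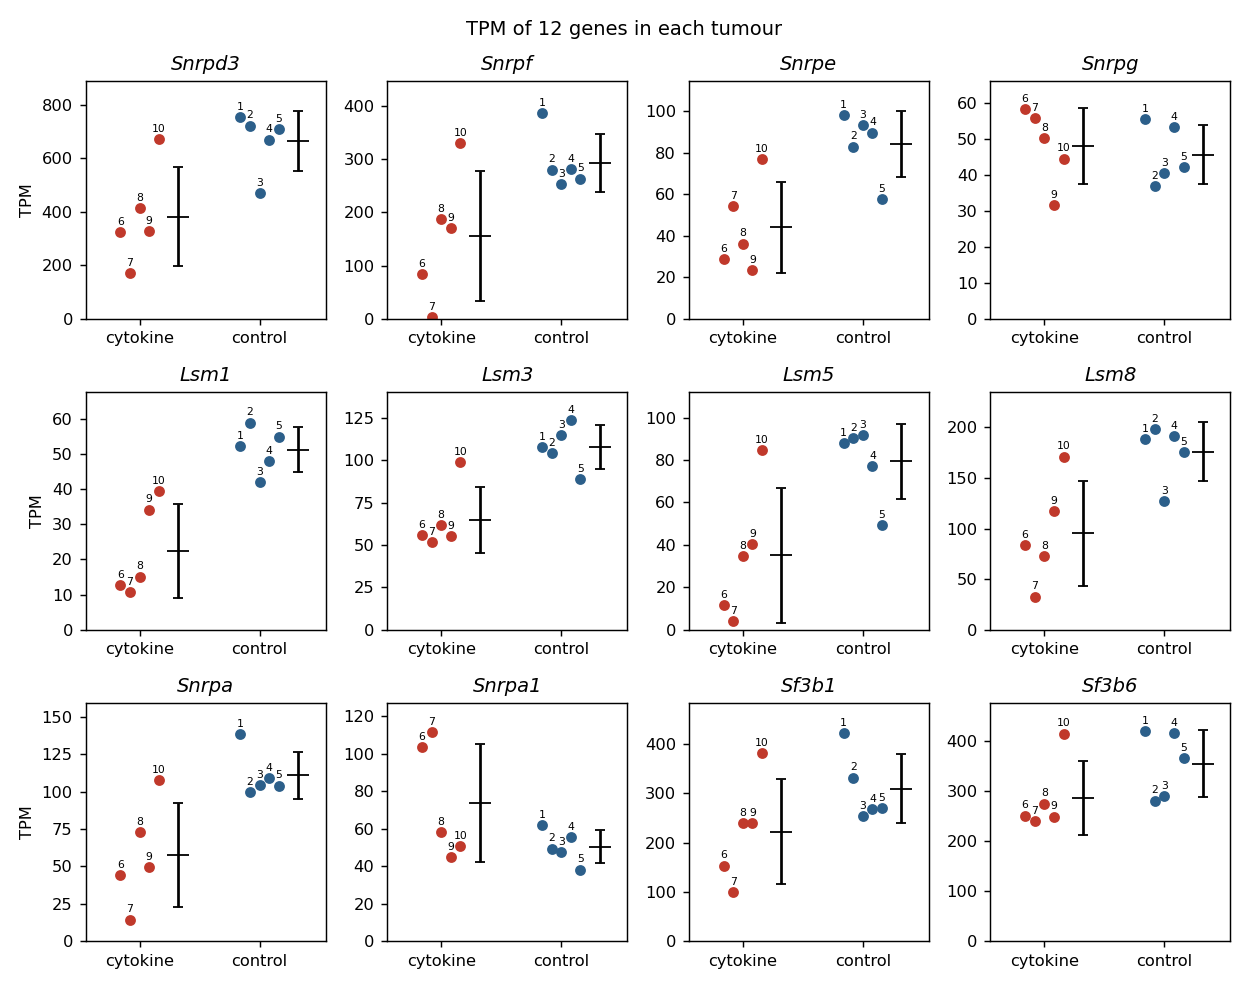
TPM (linear axes from 0) of 12 of the genes in each tumour, with library numbers beside the points. Cytokine mRNA tumours are at the left of each panel and control mRNA tumours at the right, and the bars give the mean and SD of 5 tumours. Tumour 10 lies near the control tumours in most panels, and Snrpg and Snrpa1 do not share the lower level of the other genes.

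RefSeq promoter sequences (build GRCm38.p6) were found for 27 of the 34 genes. Promoters are shown for Lsm3, 1 of the genes called, for Snrpf, with the lowest log2 difference, for Snrpa1, with the highest, and for Sf3b6, whose promoter holds a repeated motif. Each run gives the 250 bases before the annotated start, 5′ to 3′ on the gene's strand. Lsm3 is at chr6:91515785-91516034 on the plus strand, Snrpf at chr10:93589659-93589908 on the minus strand, Snrpa1 at chr7:66060086-66060335 on the plus strand and Sf3b6 at chr12:4817358-4817607 on the plus strand. Capitals mark CCGGAAG, the core bound by ETS factors, and CCAAT, the box bound by NF-Y, on either strand.
Lsm3: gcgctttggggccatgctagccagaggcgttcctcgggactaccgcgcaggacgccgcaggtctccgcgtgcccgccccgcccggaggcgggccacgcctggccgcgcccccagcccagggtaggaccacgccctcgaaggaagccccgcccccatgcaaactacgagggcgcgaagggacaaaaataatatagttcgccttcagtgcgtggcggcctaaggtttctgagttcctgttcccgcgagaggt
Snrpf: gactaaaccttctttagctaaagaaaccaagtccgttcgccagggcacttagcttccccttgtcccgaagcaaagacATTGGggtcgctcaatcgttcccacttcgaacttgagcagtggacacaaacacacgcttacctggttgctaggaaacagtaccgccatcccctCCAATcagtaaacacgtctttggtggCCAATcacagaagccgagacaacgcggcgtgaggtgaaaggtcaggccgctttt
Snrpa1: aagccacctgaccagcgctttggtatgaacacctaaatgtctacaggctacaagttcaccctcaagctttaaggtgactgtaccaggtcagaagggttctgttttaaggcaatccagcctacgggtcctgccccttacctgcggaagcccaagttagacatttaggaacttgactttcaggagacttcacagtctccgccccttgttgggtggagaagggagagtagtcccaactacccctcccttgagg
Sf3b6: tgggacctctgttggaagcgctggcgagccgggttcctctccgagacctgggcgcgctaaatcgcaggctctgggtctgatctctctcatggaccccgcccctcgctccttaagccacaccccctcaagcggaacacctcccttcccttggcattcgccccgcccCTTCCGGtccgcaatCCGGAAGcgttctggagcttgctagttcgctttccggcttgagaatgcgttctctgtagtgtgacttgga
CCGGAAG was present on either strand in 10 of the 27 promoters (37.0%), against 10.5% of the promoters of 16188 genes in the table. The 10 were those of Lsm5, Sf3a1, Sf3a2, Sf3a3, Sf3b2, Sf3b3, Sf3b6, Snrpb2, Snrpc and Snrpg. CCAAT was in 10 of the 27 (37.0%), against 39.4% of all. GGGCGG, the GC box bound by Sp1, was in 16 of the 27 (59.3%), against 47.5% of all. CACGTG, the E-box bound by Myc among other factors, was in 1 of the 27 (3.70%), that of Snrpa, against 7.80% of all. TGACGTCA, the element bound by CREB, was in 3 of the 27 (11.1%), against 2.30% of all. TTTCNNTTT, a core of interferon-stimulated response elements, was in 0 of the 27, against 10.4% of all. A gene with several starts counted once if any window held the letters, the marked matches overlap no other, and a match is a description of letters only.

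The Sm ring is made of the products of Snrpb, Snrpd1, Snrpd2, Snrpd3, Snrpe, Snrpf and Snrpg, present once each in the ring. Their mRNA levels were far from equal in every tumour. Snrpd3 had the highest mean over the 10 tumours of all 34 genes, although Snrpd1 and Sf3b6 were above it in tumour 7. Its level was 323, 172, 415, 327 and 671 TPM in cytokine mRNA tumours 6 to 10, against 752, 722, 469, 669 and 709 TPM in control mRNA tumours 1 to 5. Tumours 6 to 9 were below all controls and tumour 10 was among them. Its log2 difference was -0.91 ± 0.32 (SE), which was not called. Snrpd2, the least abundant ring gene in control tumours, averaged 18.8 ± 8.39 TPM in cytokine mRNA tumours and 33.9 ± 3.97 TPM in control mRNA tumours (SD, n = 5 each).

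Snrpf had the lowest log2 difference of the family, and the size of that difference rested largely on tumour 7. Its level was 84.2, 3.48, 188, 171 and 330 TPM in cytokine mRNA tumours 6 to 10, against 388, 281, 253, 281 and 264 TPM in control mRNA tumours 1 to 5. Tumours 6 to 9 were below all controls, with tumour 7 far below the rest, and tumour 10 was above 4 of the controls. The log2 difference was -1.80 ± 0.94 (SE), not called, and it was -0.74 without tumour 7. In tumour 7 the ratio of Snrpf to Snrpd3 was 0.0203, whereas it was 0.261 to 0.523 in the other cytokine mRNA tumours and 0.372 to 0.539 in the control mRNA tumours.

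Snrpe had 28.8, 54.4, 36.2, 23.6 and 77.0 TPM in cytokine mRNA tumours 6 to 10, against 98.3, 83.1, 93.2, 89.8 and 57.7 TPM in control mRNA tumours 1 to 5. Only tumour 10 reached into the control range, through control tumour 5. The log2 difference was -1.03 ± 0.31 (SE), not called, and it was nearly the same without tumours 6 and 7, at -1.02. Snrpb, which encodes SmB, had 60.7, 93.5, 82.8, 94.5 and 145 TPM in cytokine mRNA tumours, against 197, 163, 135, 173 and 142 TPM in control mRNA tumours. Again tumour 10 alone entered the control range, and the log2 difference of -0.80 ± 0.24 (SE) was not called. Snrpd1 averaged 237 ± 90.3 TPM in cytokine mRNA tumours and 346 ± 44.9 TPM in control mRNA tumours (SD, n = 5 each). In that gene tumour 7, at 377 TPM, lay inside the control range, while tumours 6, 8, 9 and 10 lay below it.

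Snrpg was the exception within the ring. It had 58.3, 55.8, 50.2, 31.6 and 44.5 TPM in cytokine mRNA tumours 6 to 10, against 55.5, 36.8, 40.6, 53.2 and 42.1 TPM in control mRNA tumours 1 to 5. The groups overlapped widely, and the sign of its log2 difference, 0.06 ± 0.22 (SE), changed when mitochondrial genes, the most abundant genes or single tumours were left out. Snrpn encodes SmN, a close paralog of SmB known mainly from brain and heart, and comes from an imprinted locus. It was listed at 0.667, 0.619, 0, 0.268 and 0 TPM in cytokine mRNA tumours 6 to 10, against 0, 0.239, 0, 0 and 0 TPM in control mRNA tumours 1 to 5. It was the only member below the filter and was not tested. Reads shared between Snrpn and Snrpb could have been split by the counting. GENCODE mouse release 21 also lists 3 processed pseudogenes with symbols of this family, Snrpert, Snrp1c-ps1 and Snrp1c-ps2, which are not analysed here.

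Among the genes of proteins particular to U1 and U2, Snrpa and Snrpa1 lay on opposite sides of 0. Snrpa, whose product binds a stem-loop of U1 RNA, had 43.8, 14.2, 73.1, 49.6 and 107.5 TPM in cytokine mRNA tumours 6 to 10, against 138, 99.4, 104, 109 and 104 TPM in control mRNA tumours 1 to 5. Tumours 6 to 9 were below all controls and tumour 10 was among them. Its log2 difference was -1.19 ± 0.43 (SE), not called, and -0.77 without tumour 7. Snrpa1, whose product binds U2 RNA together with the product of Snrpb2, had 104, 112, 58.0, 44.8 and 50.6 TPM in cytokine mRNA tumours, against 62.0, 49.3, 47.6, 55.4 and 38.1 TPM in control mRNA tumours. Tumours 6 and 7 were above all controls, and tumours 8, 9 and 10 were inside their range. The log2 difference was 0.46 ± 0.29 (SE), the highest of the family, not called, 0.28 without tumour 7 and 0.03 without tumours 6 and 7. Its partner Snrpb2 had 82.8, 28.9, 89.9, 42.4 and 91.1 TPM in cytokine mRNA tumours 6 to 10, against 159.5, 100.2, 88.2, 84.8 and 94.0 TPM in control mRNA tumours 1 to 5. Tumours 6, 7 and 9 were below all controls, and tumours 8 and 10 were among them. Its log2 difference of -0.74 ± 0.34 (SE), also without a call, was -0.48 without tumour 7. Snrpc, the gene of another U1 protein, averaged 20.1 ± 5.50 TPM in cytokine mRNA tumours and 29.5 ± 4.91 TPM in control mRNA tumours (SD, n = 5 each).

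**Figure D2:**
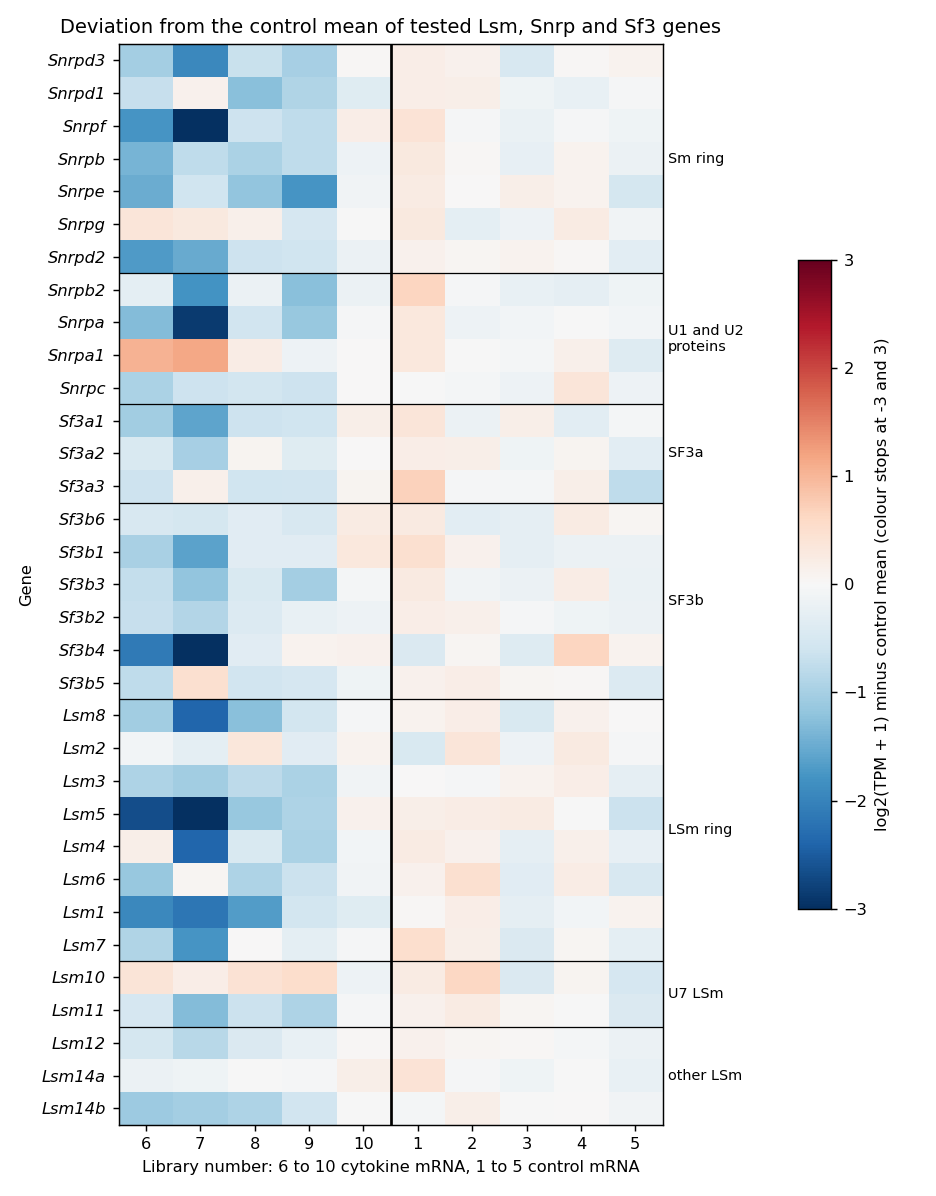
Log2(TPM + 1) of the 33 genes that passed the filter, minus each gene's mean in the control mRNA tumours, with cytokine mRNA tumours 6 to 10 at the left and control mRNA tumours 1 to 5 at the right. Blue is below and red above the control mean, and lines separate the roles. Tumours 6 to 9 are blue in most rows, tumour 7 holds both the deepest blue cells and some red ones, and tumour 10 is pale throughout.

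The SF3a and SF3b genes had smaller median differences than the Sm ring genes, whose median was -0.91. None of the 9 was called by limma. At an unadjusted p under 0.05, 3 were lower, where 2009 of all 12497 genes tested were. All 9 had log2 differences below 0, and the medians were -0.35 for the 3 SF3a genes and -0.53 for the 6 SF3b genes. Sf3b1 encodes the large subunit that clamps the branch point and is a target of splicing inhibitors. It had 153, 99.2, 239, 240 and 381 TPM in cytokine mRNA tumours 6 to 10, against 423, 332, 253, 269 and 270 TPM in control mRNA tumours 1 to 5. Tumours 8 and 9 lay just under the lowest control, and tumour 10 lay above 4 of the controls. Its log2 difference of -0.59 ± 0.33 (SE) was -0.34 without tumour 7 and -0.12 without tumours 6 and 7.

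Sf3b6, whose product contacts the branch point region, had the highest mean over the 10 tumours of the SF3 genes, although Sf3b1 was above it in control tumours 1 and 2. It had 251, 240, 274, 249 and 415 TPM in cytokine mRNA tumours 6 to 10, against 420, 281, 289, 416 and 366 TPM in control mRNA tumours 1 to 5. Its levels in tumours 6 to 9 sat close together just below the lowest control. Its log2 difference was -0.32 ± 0.22 (SE). Sf3b4 had 6.78, 3.05, 25.7, 35.4 and 36.2 TPM in cytokine mRNA tumours, against 24.2, 34.5, 25.1, 52.5 and 35.8 TPM in control mRNA tumours. Tumours 6 and 7 alone were below the control range, and the log2 difference of -1.07 ± 0.59 (SE) was -0.04 without them. Sf3a1, whose product contains a ubiquitin-like domain, had 70.1, 47.7, 93.9, 95.9 and 165 TPM in cytokine mRNA tumours, against 187, 129, 165, 117 and 140 TPM in control mRNA tumours. The log2 difference was -0.74 ± 0.30 (SE). The log2 differences of Sf3a2, Sf3a3, Sf3b2, Sf3b3 and Sf3b5 ran from -0.68 in Sf3b3 to -0.30 in Sf3b5, without a call. Without tumour 7 the values were -0.18 in Sf3a2 and -0.50 in Sf3b5, and without control tumour 1 that of Sf3a3 was -0.13, against -0.31 over all tumours.

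Both genes that were called encode LSm ring proteins. LSm2 to LSm8 form the nuclear ring on U6 RNA, and in the cytoplasm LSm1 replaces LSm8 in a ring that promotes decapping and decay of mRNA. Lsm1 fell to 12.7, 10.6, 15.2, 34.2 and 39.5 TPM in cytokine mRNA tumours 6 to 10, against 52.2, 58.9, 42.0, 48.0 and 55.0 TPM in control mRNA tumours 1 to 5. No cytokine mRNA tumour reached the lowest control, though tumours 9 and 10 came near it. The means were 22.4 ± 13.4 TPM in cytokine mRNA tumours and 51.2 ± 6.50 TPM in control mRNA tumours (SD, n = 5 each), and the log2 difference was -1.34 ± 0.35 (SE). Lsm3 fell to 56.0, 51.8, 61.7, 55.4 and 99.2 TPM in cytokine mRNA tumours 6 to 10, against 108, 104, 115, 124 and 88.9 TPM in control mRNA tumours 1 to 5. The first 4 were below all controls and tumour 10 was above the lowest of them. The log2 difference was -0.76 ± 0.21 (SE). The limma call of Lsm1 was lost in 8 of 10 fits that left out 1 tumour, all but those without tumour 9 or 10. That of Lsm3 was lost in 9 of the 10, all but that without tumour 10.

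Lsm8, the subunit that keeps the ring nuclear, had 83.5, 32.8, 72.8, 117.5 and 171 TPM in cytokine mRNA tumours 6 to 10, against 188, 198, 127, 191 and 175 TPM in control mRNA tumours 1 to 5. All but tumour 10 were below all controls, and the log2 difference of -1.05 ± 0.37 (SE) was not called. The ratio of Lsm8 to Lsm1 was 6.59, 3.08, 4.81, 3.44 and 4.33 in cytokine mRNA tumours 6 to 10, against 3.60, 3.37, 3.02, 3.98 and 3.19 in control mRNA tumours 1 to 5. The ratio was above the control range in tumours 6, 8 and 10 and inside it in tumours 7 and 9.

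Lsm5 had 11.5, 3.98, 34.8, 40.5 and 84.6 TPM in cytokine mRNA tumours 6 to 10, against 88.0, 90.4, 91.9, 77.2 and 49.4 TPM in control mRNA tumours 1 to 5. Tumours 6 and 7 were lowest and tumour 10 was among the controls. Its log2 difference of -1.71 ± 0.64 (SE) was not called and was -0.64 without tumours 6 and 7. Lsm2 did not share this order, at 133 ± 27.0 TPM in cytokine mRNA tumours and 138 ± 30.5 TPM in control mRNA tumours (SD, n = 5 each). Lsm4, Lsm6 and Lsm7 had log2 differences of -0.75, -0.55 and -0.59, without a call. Without tumour 7, Lsm4 was at -0.34 and Lsm7 at -0.30.

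Lsm10 and Lsm11 replace SmD1 and SmD2 in the U7 particle, which trims the ends of replication-dependent histone mRNAs. Lsm10 had 39.0, 34.2, 40.7, 43.2 and 26.7 TPM in cytokine mRNA tumours 6 to 10, against 35.3, 46.6, 21.6, 31.5 and 20.5 TPM in control mRNA tumours 1 to 5. The groups overlapped in full, with a log2 difference of 0.28 ± 0.26 (SE), which ran from 0.15 without control tumour 5 to 0.44 without control tumour 2. Lsm11 was the least abundant tested member, at 3.09, 1.36, 2.68, 2.05 and 4.60 TPM in cytokine mRNA tumours, against 5.30, 5.89, 5.02, 4.73 and 3.31 TPM in control mRNA tumours. Tumour 10 alone entered the control range, and the log2 difference of -0.68 ± 0.29 (SE) was not called.

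The other LSm genes act mostly on mRNA in the cytoplasm. Lsm14a and Lsm14b encode proteins of P-bodies, sites of translational repression. Lsm14a did not separate the groups, at 58.2 ± 5.83 TPM in cytokine mRNA tumours and 60.0 ± 11.4 TPM in control mRNA tumours (SD, n = 5 each). Lsm14b had 23.1, 24.3, 26.2, 33.2 and 49.5 TPM in cytokine mRNA tumours 6 to 10, against 48.4, 56.8, 50.2, 50.3 and 46.4 TPM in control mRNA tumours 1 to 5. Only tumour 10 was within the control range, and the log2 difference of -0.73 ± 0.23 (SE) was not called. Lsm12 had 75.5, 60.8, 81.1, 93.4 and 112 TPM in cytokine mRNA tumours 6 to 10, against 120.4, 113, 112, 105 and 97.0 TPM in control mRNA tumours 1 to 5. All but tumour 10 were below the lowest control, and the log2 difference of -0.40 ± 0.19 (SE) was not called.

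**Figure D3:**
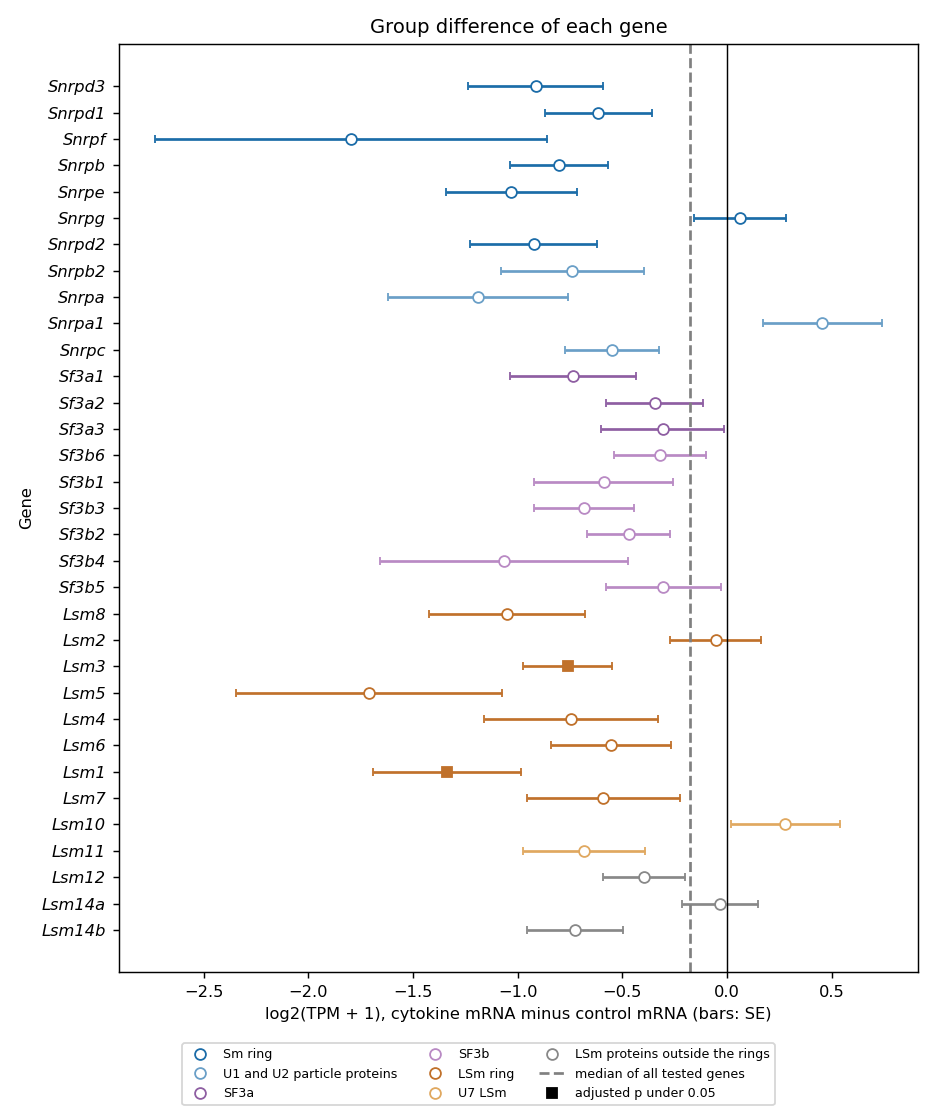
Difference in log2(TPM + 1) between cytokine mRNA and control mRNA tumours for each of the 33 genes, with SE bars from limma and colours by role. The dashed line is the median of all tested genes, at -0.18, and filled squares mark Lsm1 and Lsm3, the genes with an adjusted p under 0.05. Snrpg, Snrpa1 and Lsm10 are the 3 genes above 0.

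The genes did not move evenly within a tumour. Relative to each gene's control mean, the SD of the deviations over the 33 genes was 0.76, 1.41, 0.49, 0.43 and 0.15 on the log2 scale in cytokine mRNA tumours 6 to 10. It was 0.19 to 0.24 in the control mRNA tumours, which themselves set the mean. Over all genes tested the SD was 1.35, 1.85, 1.08, 0.98 and 0.56 in cytokine mRNA tumours 6 to 10, against 0.43 to 0.65 in control mRNA tumours, so tumours 6 and 7 were the most uneven in the whole table too. Among the splicing genes, tumour 10 was more even than any control. In tumours 6 and 7, 13 and 18 of the 33 genes were at or below a log2 deviation of -1, whereas Snrpa1 was at 1.04 and 1.15. In tumours 8 and 9, 5 genes each were that low, and in tumour 10 none was. The count over all genes was not made, so these counts have no background. The median deviation of all genes tested was -0.26, -0.45, -0.04, -0.01 and 0.02 in cytokine mRNA tumours 6 to 10. Over the Sm ring genes, the highest level was 108 times the lowest in tumour 7, where the lowest was the Snrpf level given above. It was 14.9 to 33.6 times the lowest in the other cytokine mRNA tumours and 13.0 to 26.3 times in control mRNA tumours. Snrpd2 was the lowest in all of these.

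**Figure D4:**
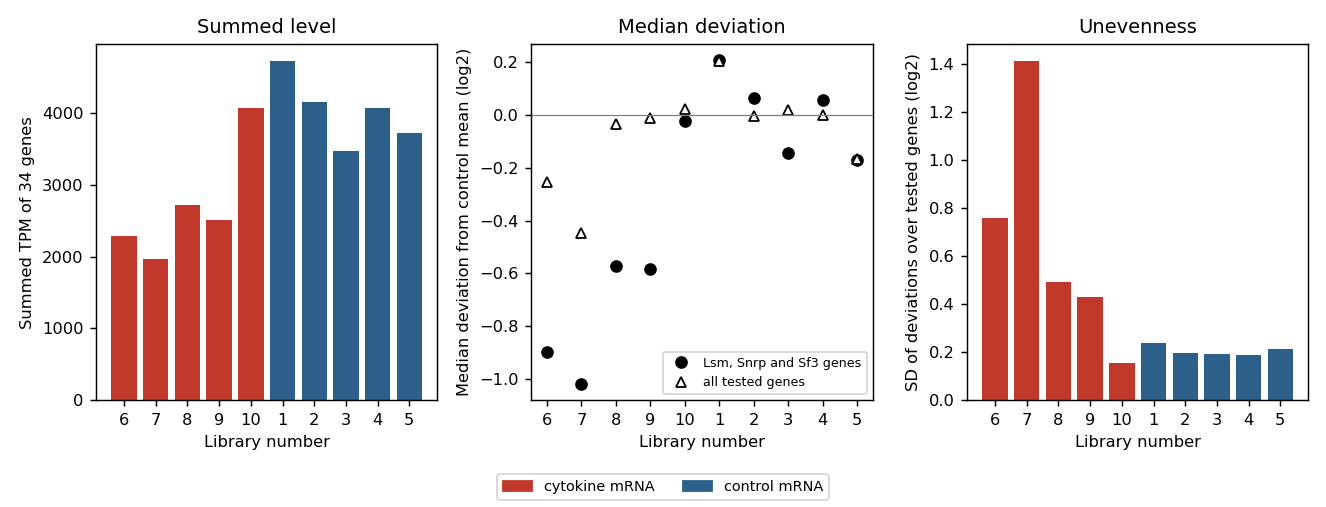
Values of each library, with cytokine mRNA tumours 6 to 10 at the left and control mRNA tumours 1 to 5 at the right: the summed TPM of the 34 genes, the median deviation from the control mean of 33 of them (circles) and of all tested genes (triangles), and the SD of the 33 deviations. Tumours 6 to 9 have circles well below their triangles, tumour 7 has the highest SD, and tumour 10 resembles the controls in all 3 panels.

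The same tumours stood apart in other measures. Mitochondrially encoded genes took 4.44% to 19.2% of TPM in cytokine mRNA tumours and 16.2% to 27.9% in control mRNA tumours. The median deviation of 74 ribosomal protein genes was -0.89, -1.57, -0.47, -0.42 and -0.13 in cytokine mRNA tumours 6 to 10, against -0.18 to 0.07 in control mRNA tumours. The mean log2 level of 23 proliferation genes was 4.30, 3.65, 4.37, 4.33 and 6.00 in cytokine mRNA tumours 6 to 10, against 5.97 to 6.33 in control mRNA tumours. Of these 23 genes limma called 17 lower and 0 higher, where it called 3.02% of all genes lower and 7.41% higher. At an unadjusted p under 0.05, 23 were lower and 0 higher, where 2009 of all 12497 genes were lower and 1804 higher. With single tumours left out limma called 5 to 23 lower, the fewest without tumour 6. In the whole table it also called the fewest genes without tumour 6, 367 in either direction, and the most without tumour 10, 3238. Cks2, a subunit of cyclin-dependent kinases, Ube2c, a mitotic ubiquitin-conjugating enzyme, and Cdk1, the mitotic kinase, had log2 differences of -2.51, -2.13 and -2.04. The median log2 difference of 18 nucleolar and ribosome biogenesis genes was -0.65, and limma called 0 of them (9 lower at an unadjusted p under 0.05). Their most abundant genes, the nucleolar protein genes Npm1 and Ncl, had log2 differences of -0.89 ± 0.31 and -0.31 ± 0.32 (SE). The part of these measures in the lower splicing gene levels was not tested.

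Most tested markers of T cells, cytotoxic lymphocytes, macrophages and monocytes, and neutrophils were higher in the cytokine mRNA tumours. Of 7 T cell markers tested, from a list of 10, 6 rose, that is, limma called them higher at an adjusted p under 0.05. Of all genes tested, limma called 7.41% higher. Without tumours 6 and 7 together it called 19 genes higher in the whole table (0.152%). For the marker lists, calls there or with 1 tumour left out were not counted. The T cell list summed to 62.0 to 3512 TPM in cytokine mRNA tumours and 3.83 to 44.1 TPM in control mRNA tumours. Of 12 macrophage and monocyte markers 9 rose, with sums of 858 to 16016 TPM in cytokine mRNA tumours and 151 to 638 TPM in control mRNA tumours. Of 8 cytotoxic lymphocyte markers tested, from a list of 10, all 8 rose, with sums of 62.2 to 2366 TPM in cytokine mRNA tumours and 1.24 to 32.7 TPM in control mRNA tumours. Of 3 neutrophil markers tested, from a list of 7, 2 rose, with sums of 16.4 to 196 TPM in cytokine mRNA tumours and 1.17 to 31.5 TPM in control mRNA tumours. Limma called 0 of 2 tested B and plasma cell markers, from a list of 7. Their list summed to 15.5 to 212 TPM in cytokine mRNA tumours and 6.88 to 53.2 TPM in control mRNA tumours. Cd28, S100a9, Ly6g and Retnlg were listed at 0 in all control mRNA tumours. So were Mzb1, a plasma cell marker, Krt14 and Krt1, of keratinocytes, and Snap25, of neurons. Tumour 7 had the highest T cell and macrophage sums and tumour 10 the lowest of the cytokine mRNA tumours.

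Pigment cell lineage markers summed to 1477 to 30014 TPM in cytokine mRNA tumours and 4608 to 24868 TPM in control mRNA tumours. These sums were lowest in tumour 7 among the cytokine mRNA tumours and in tumour 1 among the control mRNA tumours. Limma called 0 of these 10 markers (0 at an unadjusted p under 0.05). It also called 0 of 28 tested markers of fibroblasts, endothelium, skeletal muscle, erythroid cells, neurons, and B and plasma cells (1 higher at an unadjusted p under 0.05), and no keratinocyte marker passed the filter. Skeletal muscle markers summed to 624 and 328 TPM in control mRNA tumours 1 and 3, and to 7.71 to 10.8 TPM in the other controls. In cytokine mRNA tumours they summed to 8.49 to 158 TPM. Neuron markers summed to 232 TPM in control mRNA tumour 1, and to 22.4 to 84.1 TPM in the other controls. Their sums in cytokine mRNA tumours were 9.40 to 76.8 TPM. The part of cell makeup in the levels of the splicing genes was not tested.

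Other genes of the splicing pathway, were listed by function. Across 10 lists, 155 of 156 genes were tested, and 5 fell (3.23%), where 3.02% of all genes did. In the other direction 2 rose (1.29%), where 7.41% of all genes did. Log2 differences were below 0 in 115 of the 155 (74.2%), where 60.3% of all genes were below 0, and the median was -0.33, against -0.18 for all genes. Of 12 genes that assemble the Sm ring, 1 fell. It was Gemin6, part of the SMN complex, at 0, 0.518, 1.28, 0.927 and 1.33 TPM in cytokine mRNA tumours 6 to 10, against 6.56, 3.49, 3.71, 3.21 and 3.23 TPM in control mRNA tumours 1 to 5. These levels were low, the groups did not overlap, and the limma call (log2 difference -1.50 ± 0.32 SE, adjusted p = 0.0184) held in all 10 fits with 1 tumour left out.

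Of 22 hnRNP genes, whose products bind nascent RNA, limma called Hnrnpa3 lower, at 28.0 ± 15.1 TPM in cytokine mRNA tumours, against 79.8 ± 19.4 TPM in control mRNA tumours (SD, n = 5 each; adjusted p = 0.0165). Of these 22, 17 were below 0, with a median of -0.56, 8 were lower at an unadjusted p under 0.05, and 2 were called lower after median-ratio scaling. At that unadjusted threshold, 2009 of all 12497 genes tested were lower and 1804 higher. The call of Hnrnpa3 held in all 10 fits with 1 tumour left out. Of 20 SR protein and kinase genes tested, limma called Srsf1 lower, at 12.5 ± 4.51 TPM in cytokine mRNA tumours, against 25.4 ± 5.89 TPM in control mRNA tumours (adjusted p = 0.0475), with 15 below 0 and 5 lower at an unadjusted p under 0.05. Of 27 other particle proteins limma called Snrnp27, of the U4/U6.U5 particle, lower, with a log2 difference of -0.81 ± 0.23 (SE; adjusted p = 0.0469). Of these, 17 were below 0 and 7 lower at an unadjusted p under 0.05. Up to 7 were called lower with 1 tumour left out, the most without tumour 10, where 12.8% of all genes were. Of 11 exon junction complex and export genes limma called Alyref, an mRNA export adaptor, lower, with a log2 difference of -0.99 ± 0.25 (SE; adjusted p = 0.0321). In that list 10 were below 0, with a median of -0.40, and 4 were lower at an unadjusted p under 0.05.

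The 2 genes that rose were Cherp, of 15 U2 recruitment genes, and Dcp1b, of 10 decapping and decay genes. Cherp reached 1203 ± 628 TPM in cytokine mRNA tumours and 437 ± 172 TPM in control mRNA tumours (SD, n = 5 each; limma adjusted p = 0.0435). Dcp1b, a decapping cofactor that works with the LSm1 ring, reached 48.5 ± 15.9 TPM in cytokine mRNA tumours and 24.2 ± 6.91 TPM in control mRNA tumours (limma adjusted p = 0.0417). The calls of Srsf1, Snrnp27 and Cherp held in 1 of the 10 fits with 1 tumour left out, and those of Alyref and Dcp1b in 2. None of 19 Prp19 complex genes, 10 snRNA capping and transport genes or 9 histone pre-mRNA processing genes was called by limma. At an unadjusted p under 0.05, 8 were lower and 2 higher, where 2009 of all 12497 genes were lower and 1804 higher. Prpf19, the ubiquitin ligase of its complex, averaged 228 ± 78.0 TPM in cytokine mRNA tumours and 209 ± 33.0 TPM in control mRNA tumours (SD, n = 5 each), and Bcas2, of the same complex, averaged 122 ± 52.1 TPM in cytokine mRNA tumours and 177 ± 36.1 TPM in control mRNA tumours. The most abundant genes of the other lists were Ncbp2, of the cap-binding complex, and Tgs1, the enzyme that forms the snRNA cap, with log2 differences of -0.26 and -0.23, and Sympk and Cpsf3, of the cleavage complex, with -0.80 and 0.27.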

How the data were processed

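Polyadenylated RNA was sequenced from 10 tumours. Stranded NuGEN libraries were made from DNase-treated RNA, per the labels' protocols. The authors deposited 1 table of TPM, scaled to 1000000 in each library. Per the submitters' processing notes STAR was used with build GRCh38, which is a human build while the symbols are mouse, so the build is uncertain. How reads were counted, and on which annotation, is not given in the sources used here.

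Without depth no counting interval or limit can be given, and a rise of abundant genes lowers all others. Groups came from the titles, which give each library its number. No number is shared between groups, and no batch is named. Nothing states that each tumour came from a separate animal, so p-values measure the spread between these samples.

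Genes reaching 1 TPM in 5 or more libraries were compared on log2(TPM + 1) with limma 3.58.1 in R 4.3.3 (eBayes with a trend, 2-sided, Benjamini-Hochberg over 12497 genes). Fold changes on that scale understate those of low genes. The fit was tested on simulated data. The members and the 24 pathway and marker lists were chosen with earlier results of these data known. Genes were given in full by rule: in each role group the most abundant member and that with the largest difference, the 3 largest falls and rises, and Snrpb and Snrpn. Lsm3, Snrpe and Sf3b1 were added after their values were seen. In each pathway list up to 3 called genes are named, or the 2 most abundant. Promoters are RefSeq's, on GRCm38.p6, matched by symbol. Other pseudocounts, filters, scalings, weights and left-out libraries were tried.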

Additional observations from a re-analysis of the deposited data

Results flagged for a closer look

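Of 68 sets of 5 TPM values, 1 for each gene and group, 10 held a value far from the other 4, with a gap of over 0.71 of the range. Chance flags about 1 in 20 such sets where values are independent and normally distributed. The 68 sets come from the same 10 tumours, so the 10 flags cannot be read against that rate. In the cytokine mRNA tumours these were tumour 10 in Lsm3, at 99.2 TPM, and tumour 10 in Sf3b6, at 414.7 TPM, both above the other 4. Control mRNA tumour 1 was highest in Lsm14a at 79.6 TPM, Snrpa at 138 TPM, Snrpb2 at 159.5 TPM and Snrpf at 388 TPM. Control mRNA tumour 5 was lowest in Sf3b5 at 9.09 TPM and in Snrpd2 at 26.9 TPM. Control mRNA tumour 4 was highest in Snrpc at 38.0 TPM. Control mRNA tumour 2 was alone above 0 in Snrpn, at 0.239 TPM.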

How the results depend on the processing

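The median log2 difference of the splicing genes stayed below 0 in all 20 other settings, from -0.87 after rescaling without mitochondrial genes to -0.41 without tumours 6 and 7. Without 1 tumour it ran from -0.84 to -0.53. The median of all genes was -0.18 as deposited, -0.03 after median-ratio scaling, -0.37 without mitochondrial genes and -0.28 without the 50 most abundant genes. The gap between the splicing genes and all genes was -0.49, -0.50 and -0.51 in the last 3 of these. The count of splicing genes called lower was 2 as reported. It was 0 without a filter, 1 with median-ratio scaling, 7 without mitochondrial genes, 5 without the 50 most abundant genes, 4 after quantile normalization, 15 with library quality weights and 0 without tumours 6 and 7. With 1 tumour left out it was 0 to 14, the highest without tumour 10. Genes called in the whole table, lower or higher, numbered 1304 as reported. They numbered 846 without a filter, 1416 with median-ratio scaling, 1726 without mitochondrial genes and 1424 without the 50 most abundant genes. They numbered 1629 after quantile normalization, 2769 with quality weights, 20 without tumours 6 and 7, and 367 to 3238 with 1 tumour left out. In the rescaled, quantile and weighted settings, the share of all genes called lower alone was not counted. Calls in the 10 other splicing lists numbered 7, and 2 to 36, the highest without tumour 10, with 1 tumour left out. Snrpg, at 0.06, changed sign without mitochondrial genes (-0.14), without the 50 most abundant genes (-0.037), with quality weights (-0.052) and without tumours 6 and 7 (-0.12), and ran from -0.015 to 0.20 with 1 tumour left out. The cause of these changes was not tested. No paired analysis was possible because the groups share no replicate number. Depth is unknown, which limits Snrpn and other low genes.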
